A study of Mus musculus with 16 samples.

Results

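The 8 genes described here are Nr4a1, Nr4a2, Nr4a3, Egr1, Egr2, Egr3, Dusp1 and Dusp2, early response genes of the NR4A, EGR and dual specificity phosphatase families. They were found by symbol in the array's probe-to-gene table. This gave 10 of the 26423 probes and 8 of the 17710 named genes, with 2 probes each for Nr4a2 and Nr4a3. All cells came from C57BL/6 mice of the genotype given as Normal, and their RNA was read in the Cy5 channel of 16 arrays. From the heart came c-kit cells (heart c-kit, 3 arrays), Sca1+CD45-CD31- cells (heart Sca1, 3 arrays), side population cells gated by efflux of the dye Hoechst 33342 (2 arrays) and cardiomyocytes spun down at 100 rpm for 1 min (2 arrays), the controls. From the marrow came c-kit cells (marrow c-kit, 3 arrays) and mesenchymal stem cells harvested after 5 passages (MSC, 3 arrays). The series text names the comparison of cardiac progenitors with cardiomyocytes as its aim, and its title adds that of cardiac with marrow cells. The labels give 1 growth text for all samples, Matrigel-coated dishes with the medium mTeSR, although only the MSC carry a passage number. They do not say how many animals were used or whether replicates came from separate ones, so p-values measure only how these arrays vary, in part perhaps for technical reasons.

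Early response genes are switched on within minutes by growth factors, calcium signals and stress, from transcription factors already present in the cell such as CREB and SRF, without new protein synthesis. The NR4A proteins are nuclear receptors that act without a known natural ligand, so that their activity follows how much of them is made. The EGR proteins are zinc finger factors downstream of the kinase ERK. The DUSP1 and DUSP2 phosphatases sit in the nucleus, remove phosphate from MAP kinases and so close a feedback loop on the signals that induced them. In blood-forming tissue, NR4A1, NR4A3 and EGR1 are known as restraints on stem cell division, and in the heart Nr4a1 and Egr1 respond to load and injury.

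Of the 8 genes, 6 have a promoter window in the RefSeq table of mouse build GRCm38.p6, with 10 annotated starts between them (Egr2 has 5). Egr1 and Egr3 are named only. The windows hold the 250 bases before the start, printed 5′ to 3′ on the gene's strand, and are shown so that the letters upstream of members of 1 family can be set side by side. For Egr2 the middle of the 5 starts was used. Capitals mark TGACG on either strand (CGTCA where it lies on the other strand), the core of the cyclic AMP response element bound by CREB, and in Egr2 also a CArG box, the binding motif of SRF.
Nr4a1 (chr15:101266596-101266845, plus strand): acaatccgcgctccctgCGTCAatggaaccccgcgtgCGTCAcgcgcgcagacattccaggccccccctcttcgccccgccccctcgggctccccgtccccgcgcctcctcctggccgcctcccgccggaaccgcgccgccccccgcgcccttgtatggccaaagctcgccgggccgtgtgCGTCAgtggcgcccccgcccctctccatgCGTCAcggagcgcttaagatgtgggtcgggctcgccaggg
Nr4a2 (chr2:57124004-57124253, minus strand): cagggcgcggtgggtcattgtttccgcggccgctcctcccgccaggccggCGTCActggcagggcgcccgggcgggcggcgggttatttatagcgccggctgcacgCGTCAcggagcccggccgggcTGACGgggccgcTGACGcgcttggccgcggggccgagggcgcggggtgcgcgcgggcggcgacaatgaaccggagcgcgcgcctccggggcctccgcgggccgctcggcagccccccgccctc
Nr4a3 (chr4:48045055-48045304, plus strand): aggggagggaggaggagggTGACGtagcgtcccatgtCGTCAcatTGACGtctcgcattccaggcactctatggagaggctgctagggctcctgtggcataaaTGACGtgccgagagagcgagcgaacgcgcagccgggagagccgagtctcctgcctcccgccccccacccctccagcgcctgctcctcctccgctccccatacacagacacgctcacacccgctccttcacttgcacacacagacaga
Egr2 (chr10:67537619-67537868, plus strand): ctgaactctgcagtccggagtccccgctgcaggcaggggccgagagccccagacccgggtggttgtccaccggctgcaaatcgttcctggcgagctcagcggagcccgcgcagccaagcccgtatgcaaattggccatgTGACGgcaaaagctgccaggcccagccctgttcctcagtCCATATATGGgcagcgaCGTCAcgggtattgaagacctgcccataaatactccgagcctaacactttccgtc
Dusp1 (chr17:26508473-26508722, minus strand): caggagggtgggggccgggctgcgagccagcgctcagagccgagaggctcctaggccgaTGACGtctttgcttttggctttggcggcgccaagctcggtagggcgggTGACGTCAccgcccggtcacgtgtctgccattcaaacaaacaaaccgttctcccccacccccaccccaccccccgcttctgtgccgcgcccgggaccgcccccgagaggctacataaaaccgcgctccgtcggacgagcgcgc
Dusp2 (chr2:127335909-127336158, plus strand): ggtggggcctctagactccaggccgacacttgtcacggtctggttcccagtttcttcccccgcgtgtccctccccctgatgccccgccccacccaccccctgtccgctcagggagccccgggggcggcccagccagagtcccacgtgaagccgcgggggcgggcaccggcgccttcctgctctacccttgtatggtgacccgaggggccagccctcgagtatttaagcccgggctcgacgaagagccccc

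The windows of Nr4a1, Nr4a2 and Nr4a3 each held 4 matches to TGACG, those of Egr2 and Dusp1 held 2, and that of Dusp2 held 0. Overlapping matches were counted once. Of 32851 windows of this length in the table, 17.8% held at least 1 match and 2.74% at least 2. At least 4 matches were found in 16 windows (0.0487%), of 16 genes, and 3 of these genes were the Nr4a family. That minimum was chosen after the matches were seen. In Dusp1 the match at -143, counted from the start, was part of the full element TGACGTCA, which 1.55% of windows held. The CArG box of Egr2 began at -72, and 1.47% of windows held one. Neither the NR4A motif AAAGGTCA (1.34% of windows), the EGR motif GCGTGGGCG (0.536%) nor the AP-1 motifs TGACTCA and TGAGTCA (4.46%) matched any of the 6 windows printed. A match is a description of letters, and its absence says nothing about binding.

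Levels are log2 Cy5 intensities, centred by the authors on each array's mean and quantile normalised here, so 0 is near the middle of an array. Before normalisation the SD over an array's values ran from 2.90 (heart c-kit replicate 1) to 4.05 (MSC replicate 1). Arrays were thus stretched unequally, and a step of 1 is a doubling on the normalised scale, not of spot intensity. Levels of different genes are not compared, since probes differ in brightness. The median spot intensity was 15 to 200 over the arrays and lowest on both side population arrays and heart c-kit replicate 2. The brightest spots stood at 65436 to 65471, the scanner's ceiling. Egr1 stood there on heart Sca1 replicates 1 and 2 (65447 and 65446) and cardiomyocyte replicate 2 (65446), and Nr4a1 on heart Sca1 replicate 2 (65450), so these levels are lower bounds.

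Marker lists were read against the labels. Kit averaged 5.50 in marrow c-kit cells and 3.67 in heart c-kit cells and at most 1.26 elsewhere. The cardiomyocyte list, 6 of 10 genes measured, averaged 6.69 and 6.80 on the cardiomyocyte arrays and at most 4.0 elsewhere, but those arrays also carried the endothelial list (10 of 10 measured) at 6.34 and 6.82 and the macrophage and leukocyte list (8 of 10) at 3.44 and 4.64. The arrays labelled MSC carried the macrophage and leukocyte list at 6.75 to 7.30, with C1qa at 7.88 ± 0.25 (SD, n = 3), and the fibroblast list (7 of 7) at only 1.09 to 1.86, against 6.15 to 6.36 on the heart Sca1 arrays, 4.81 and 4.97 on the side population arrays and 3.70 and 4.75 on the cardiomyocyte arrays. That list stood at 0.70 to 2.39 on the heart c-kit arrays and -2.28 to -1.81 on the marrow c-kit arrays. It was thus highest in the same 3 groups as the quantile normalised means of Nr4a1, Nr4a2, Nr4a3, Egr1, Egr2 and Dusp1. For Egr2 and Dusp1 those 3 groups did not hold under the other scalings. MSC then stood above cardiomyocytes, by 0.73 and 0.30 with medians aligned and by 0.56 and 0.13 in the deposited values. Within the fibroblast list, MSC means ran from -4.34 for Tcf21 to 5.17 for Col1a2, with Pdgfra at 5.08. The smooth muscle and pericyte list (5 of 6) was higher in MSC (4.38 to 4.58) than in heart Sca1 cells (2.26 to 3.98). Cardiomyocytes had it at 5.33 and 5.61, side population cells at 3.31 and 3.57 and both c-kit groups at -0.19 to 1.85. Acta2 of this list averaged 8.31 in MSC and 7.87 in cardiomyocytes. Marrow c-kit arrays carried neutrophil granule genes (6 of 6) at 4.88 to 5.35, against at most 0.38 elsewhere. The heart c-kit arrays carried the endothelial list at 4.93, 5.71 and 5.35, against 0.49 and 0.70 on the side population arrays. Heart Sca1 replicate 3 carried it at 5.34 (0.31 and 1.57 on the other replicates) and the macrophage list at 3.13 (-1.01 and -0.58), although CD31 and CD45 cells had been gated out. On the side population arrays, Abcg2, the dye exporter that defines such cells, averaged 2.50 ± 2.70 (SD, n = 2), the lowest of the 6 groups. In bulk RNA, fewer cells of a type and less RNA per cell cannot be told apart. The part of these other cells in the results was not tested.

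All 8 genes differed over the 6 groups in limma's moderated F test, with adjusted p-values from 3.95e-06 for Dusp1 to 0.0196 for Egr3. Of all 17710 genes, 31.9% passed that test. Of the 8, Dusp1 ranked 149 and Nr4a1 175 among all genes by F, whereas Egr3 ranked 4012. The group means spanned from 2.97 log2 units for Egr3 to 7.26 for Nr4a3.

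**Figure D1:**
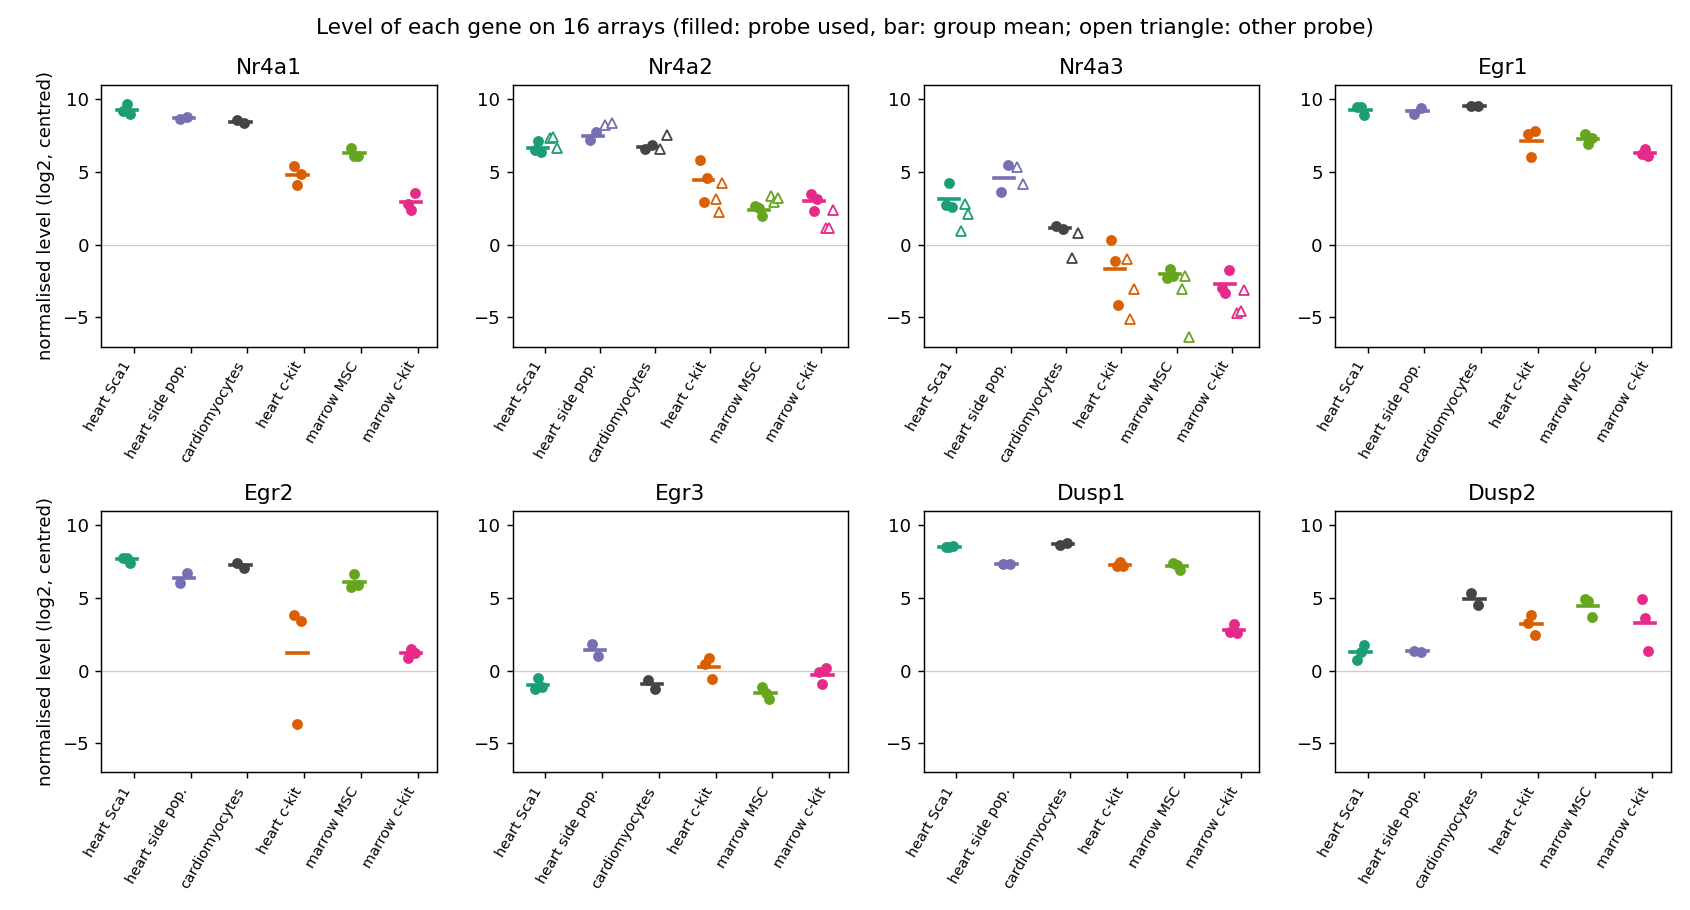
Normalised log2 level (y axis, centred scale) of each gene on every array, by group (x axis); filled points are the probe used, bars are group means and open triangles are the other probe of Nr4a2 and Nr4a3. Nr4a1, Nr4a2, Nr4a3, Egr1, Egr2 and Dusp1 have their 3 highest means in heart Sca1 cells, side population cells and cardiomyocytes. For Egr2 and Dusp1 this holds on the quantile normalised scale shown, but MSC stand above cardiomyocytes with medians aligned and in the deposited values. In Egr2 the side population mean (6.36) lies close to that of MSC (6.09), and in Dusp1 (7.34) close to that of heart c-kit cells (7.29). Dusp2 has its 2 lowest means in heart Sca1 and side population cells.

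Nr4a1, which encodes NUR77, was high in 3 of the heart groups and low in both c-kit groups. It stood at 9.21, 9.66 and 9.03 on the heart Sca1 arrays, 8.68 and 8.79 on those of the side population, and 8.56 and 8.38 in cardiomyocytes. It was 6.64, 6.12 and 6.09 on the MSC arrays, 5.45, 4.10 and 4.88 on the heart c-kit arrays and 2.79, 2.42 and 3.57 on the marrow c-kit arrays. No array of one group fell within the range of another group in this gene. The raw intensities ran from 258 on a marrow c-kit array to the ceiling on a heart Sca1 array.

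In the order of Nr4a1 means, heart Sca1 and side population cells (9.30 ± 0.32 and 8.74 ± 0.08, SD, n = 3 and 2) differed by 0.56 (limma adjusted p = 0.595). Side population cells and cardiomyocytes (8.47 ± 0.13, SD, n = 2) differed by 0.26 (adjusted p = 0.853). Neither gap passed the test, and with medians aligned the first turned, side population cells then standing 1.79 above heart Sca1 cells (adjusted p = 0.166). The step from cardiomyocytes down to MSC (6.28 ± 0.31, SD, n = 3) was called at -2.19 ± 0.58 (SE; limma adjusted p = 0.0328). The next, from MSC to heart c-kit cells (4.81 ± 0.68, SD, n = 3), was -1.47 and was not called (adjusted p = 0.0805). Heart c-kit cells exceeded marrow c-kit cells (2.93 ± 0.59, SD, n = 3) by 1.88 ± 0.52 (adjusted p = 0.0298). The call between MSC and cardiomyocytes was lost without either cardiomyocyte array (adjusted p = 0.194 without replicate 1, 0.0888 without replicate 2), without any 1 MSC array (0.0638 to 0.102) and under both other scalings. That between the c-kit groups was lost without heart c-kit replicate 1 (adjusted p = 0.077) or 3 (0.058) and without marrow c-kit replicate 1 (0.083) or 2 (0.13).

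Of the gaps in Nr4a1, 5 were called under all 25 alternatives run. Heart Sca1 cells exceeded marrow c-kit cells by 6.37 (limma adjusted p = 1.19e-06) and side population cells did so by 5.81 (adjusted p = 9.53e-06). Marrow c-kit cells lay below cardiomyocytes (log2 difference -5.54 ± 0.58, SE; limma adjusted p = 2.19e-05) and below MSC (-3.35 ± 0.52, adjusted p = 0.000613). Heart c-kit cells lay below heart Sca1 cells at a log2 difference of -4.49 ± 0.52 (adjusted p = 0.000117), with every array of the first below every array of the second. Side population cells exceeded heart c-kit cells by 3.93 (adjusted p = 0.000651), lost under 1 alternative, the fit limited to these groups (adjusted p = 0.137). Heart c-kit cells also fell below cardiomyocytes (-3.66 ± 0.58, adjusted p = 0.00314), a call kept with each array left out in turn (-4.01 to -3.29) but not with medians aligned in place of quantile normalisation (-1.81, adjusted p = 0.294), in the deposited values (-2.51, adjusted p = 0.126) or with the fit limited to the groups compared (-3.66, adjusted p = 0.221). Heart Sca1 cells exceeded MSC by 3.02 ± 0.52 (adjusted p = 0.00178), which was lost under 1 alternative, with medians aligned (2.60, adjusted p = 0.0501).

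Nr4a2 encodes NURR1, best known from midbrain dopamine neurons. The side population arrays stood at 7.24 and 7.79, the cardiomyocyte arrays at 6.60 and 6.88 and the heart Sca1 arrays at 6.50, 7.11 and 6.41. It was 5.86, 2.93 and 4.61 on the heart c-kit arrays, 3.49, 2.33 and 3.15 on the marrow c-kit arrays and 2.67, 2.53 and 1.99 on the MSC arrays. The first 3 groups lay above all arrays of the other 3, and the heart c-kit arrays spread widely. The second probe, mMR030449, gave the same 3 groups at the top (8.31 ± 0.14, 7.15 ± 0.40 and 7.07 ± 0.69 in side population cells, heart Sca1 cells and cardiomyocytes). It set MSC (3.19 ± 0.21, SD, n = 3) above marrow c-kit cells (1.57 ± 0.73), where the probe used had MSC lower (2.40 ± 0.36 against 2.99 ± 0.60), so the order of the marrow groups is not settled.

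MSC lay below cardiomyocytes in Nr4a2 (log2 difference -4.34 ± 0.75, SE; limma adjusted p = 0.00318), as did marrow c-kit cells (-3.75 ± 0.75, adjusted p = 0.004). Both calls were kept with each array left out, but with medians aligned the differences were -2.59 and -2.67 and were not called (adjusted p = 0.083 and 0.076). Heart Sca1 cells exceeded MSC by 4.28 ± 0.67 (adjusted p = 0.000927), called under every alternative. Neighbours in the order from side population cells to cardiomyocytes (0.78, adjusted p = 0.64) and from there to heart Sca1 cells (-0.06, adjusted p = 0.983) were not separated. Heart c-kit cells were called below heart Sca1 cells (-2.21 ± 0.67, adjusted p = 0.0482). That call was lost in 12 of 16 fits that left out 1 array; without heart c-kit replicate 2 the difference was -1.43 (adjusted p = 0.149). Without heart c-kit replicate 1 or marrow c-kit replicate 1 the second probe had the higher mean and was used, and heart c-kit cells were then called below cardiomyocytes (-3.89, adjusted p = 0.0111 and 0.00875; with all arrays -2.27, adjusted p = 0.124).

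Nr4a3, which encodes NOR1, had the widest span of the 8 genes. It stood at 3.65 and 5.48 in side population cells, 2.72, 4.23 and 2.58 on the heart Sca1 arrays and 1.29 and 1.07 on the cardiomyocyte arrays. It was 0.34, -1.12 and -4.17 on the heart c-kit arrays, -2.28, -1.66 and -2.14 on the MSC arrays and -2.98, -3.32 and -1.77 on the marrow c-kit arrays. All side population, heart Sca1 and cardiomyocyte arrays lay above all others. Its intensities were low in the last 3 groups, 2 to 147, so the size of these differences is uncertain. The second probe, mMC004920, kept the order of all 6 means, with 1 heart c-kit array at a single value that many probes of that array share and whose rule is not stated.

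Heart Sca1 cells exceeded MSC in Nr4a3 by 5.20 ± 0.96 (SE; limma adjusted p = 0.00294), called under every alternative. Heart c-kit cells lay below heart Sca1 cells (-4.83 ± 0.96, adjusted p = 0.00539), a call kept with each array left out, at -5.96 to -3.50. Marrow c-kit cells lay below cardiomyocytes (-3.87 ± 1.07, adjusted p = 0.0286), which was lost without either cardiomyocyte array (adjusted p = 0.15 and 0.11) and without marrow c-kit replicate 1 (0.077) or 2 (0.098). The neighbouring means of side population and heart Sca1 cells (1.39, adjusted p = 0.466), heart Sca1 cells and cardiomyocytes (1.99, adjusted p = 0.488) and the 3 lowest groups (0.37, adjusted p = 0.829, and -0.66, adjusted p = 0.748) were not separated. Without heart c-kit replicate 1, heart c-kit cells were called below cardiomyocytes (-3.91, adjusted p = 0.042; with it, -2.83, adjusted p = 0.191).

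Egr1 had its highest levels in cardiomyocytes (9.55 and 9.54), heart Sca1 cells (9.47, 9.50 and 8.93) and side population cells (9.02 and 9.40). It was 7.60, 6.96 and 7.34 on the MSC arrays, 7.61, 6.05 and 7.82 on the heart c-kit arrays and 6.27, 6.57 and 6.10 on the marrow c-kit arrays. The first 3 groups lay above every array of the other 3, and the heart c-kit arrays overlapped both marrow groups. The differences of heart Sca1 cells (-0.24, 95% interval -1.53 to 1.04) and side population cells (-0.34, -1.75 to 1.07) from cardiomyocytes were not called. With medians aligned they turned to 0.88 and 3.17, and in the deposited values to 0.67 and 1.91, also not called. Since 3 of these arrays were at the scanner's ceiling, a gap between them could not be read in full. The step from side population cells to MSC was called (1.91 ± 0.60, SE; limma adjusted p = 0.0418), and lost in 12 of 16 fits that left out 1 array, at 1.71 to 2.09, and in the fit limited to these groups (adjusted p = 0.0578).

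Marrow c-kit cells lay below cardiomyocytes in Egr1 at -3.23 ± 0.60 (SE; limma adjusted p = 0.00243), called with each array left out (-3.35 to -3.09) and not called with medians aligned (-2.67, adjusted p = 0.14). The calls of heart c-kit cells (-2.39 ± 0.60, adjusted p = 0.0428) and MSC (-2.24 ± 0.60, adjusted p = 0.0349) against cardiomyocytes were close to the threshold. The first was lost in 12 and the second in 7 of 16 fits that left out 1 array, among them both without a cardiomyocyte array (adjusted p = 0.18 and 0.189 for heart c-kit cells, 0.191 and 0.103 for MSC). Heart Sca1 cells exceeded MSC by 2.00 ± 0.54 (adjusted p = 0.0284), and heart c-kit cells lay below heart Sca1 cells (-2.14 ± 0.54, adjusted p = 0.0199). Without heart Sca1 replicate 1 or 2 both were lost (adjusted p = 0.093 and 0.099 for MSC, 0.069 and 0.07 for heart c-kit cells). So was the first without any 1 MSC array (0.06 to 0.11), and the second without heart c-kit replicate 2 (-1.59, adjusted p = 0.058). The 3 lowest means, 7.30 ± 0.32, 7.16 ± 0.97 and 6.31 ± 0.24, were not separated (adjusted p = 0.892 and 0.395).

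Egr2, or KROX20, known from hindbrain and Schwann cells, was low in both c-kit groups and not in MSC. It stood at 7.76, 7.75 and 7.43 on the heart Sca1 arrays, 7.41 and 7.08 on the cardiomyocyte arrays, 5.99 and 6.74 in side population cells and 5.72, 6.65 and 5.91 on the MSC arrays. It was 0.88, 1.51 and 1.24 on the marrow c-kit arrays and 3.81, -3.65 and 3.39 on the heart c-kit arrays. The c-kit arrays all lay below the others. Heart c-kit replicate 2, with an intensity of 2, stood far below its group. The residual SD over all groups was 1.90, against 0.45 in Nr4a1.

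Marrow c-kit cells lay below cardiomyocytes in Egr2 (-6.04 ± 1.55, SE; limma adjusted p = 0.019) and below MSC (-4.88 ± 1.38, adjusted p = 0.0355). The first call was lost without either cardiomyocyte array (0.12 and 0.091) and without marrow c-kit replicate 1 or 3 (0.054 each), the second without any 1 array of either group (0.082 to 0.11). Heart c-kit cells lay below heart Sca1 cells (-6.47 ± 1.38, adjusted p = 0.00856), called with each array left out; without heart c-kit replicate 2 the difference was -4.00. Their difference from cardiomyocytes (-6.07 ± 1.55, adjusted p = 0.0459) was -3.60 without that array and was called there, but was lost in 11 of 16 such fits. The c-kit groups were not separated in the fit of all arrays (-0.03, adjusted p = 0.995), and without heart c-kit replicate 2 the difference turned to 2.33 in favour of the heart and was called (adjusted p = 0.0114). The 4 upper means (7.65, 7.25, 6.36 and 6.09) were not separated from their neighbours (adjusted p = 0.94, 0.812 and 0.923). In the fit without heart c-kit replicate 2, the gap of 1.55 between heart Sca1 cells and MSC was called (adjusted p = 0.047; 0.602 with all arrays).

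Egr3, known from muscle spindles and activated T cells, was a dim probe, with intensities of 15 to 153 on all arrays. It stood at 1.83 and 1.03 in side population cells, 0.44, 0.89 and -0.57 on the heart c-kit arrays and -0.12, -0.95 and 0.15 on the marrow c-kit arrays. It was -0.65 and -1.25 on the cardiomyocyte arrays, -1.28, -0.48 and -1.13 on the heart Sca1 arrays and -1.13, -1.56 and -1.93 on the MSC arrays. In normalised level the side population arrays lay above all others. In spot intensity (90 and 66) they did not. Cardiomyocytes stood at 79 and 106, heart c-kit replicate 1 at 153 and MSC at 15 to 76. Both side population arrays were dim, with median intensities of 15 and 22, so their lead is one of scaled levels. Side population cells exceeded MSC by 2.97 ± 0.62 (SE; limma adjusted p = 0.00532), called under every alternative, and heart Sca1 cells by 2.39 ± 0.62 (adjusted p = 0.0361). The second call was lost without side population replicate 1 (2.00, adjusted p = 0.14), without any 1 heart Sca1 array (0.057 to 0.1) without any 1 MSC array (0.051 to 0.054) and in the fit limited to these groups (0.0974). In no comparison with cardiomyocytes did Egr3 pass the test. The closest was that of side population cells (2.38, limma adjusted p = 0.0592), called under 4 of 25 alternatives. No neighbours in the order of means were separated.

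Dusp1, the phosphatase MKP-1, separated marrow c-kit cells from every other group. It was 8.64 and 8.76 on the cardiomyocyte arrays, 8.52, 8.47 and 8.59 on the heart Sca1 arrays and 7.36 and 7.31 on the side population arrays. It was 7.20, 7.46 and 7.22 on the heart c-kit arrays, 7.37, 7.23 and 6.95 on the MSC arrays and 2.67, 3.19 and 2.60 on the marrow c-kit arrays. Replicates lay close together (residual SD 0.19), and the marrow c-kit intensities, 244 to 774, stood against 4118 or more elsewhere.

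Marrow c-kit cells lay below cardiomyocytes in Dusp1 (-5.89 ± 0.48, SE; limma adjusted p = 3.08e-06), below MSC (-4.37 ± 0.43, adjusted p = 1.33e-05) and below heart c-kit cells, which exceeded them by 4.47 ± 0.43 (adjusted p = 1.1e-05). These 3 differences were called under every alternative run. Side population, heart c-kit and MSC means (7.34, 7.29 and 7.18) were not separated (0.04, adjusted p = 0.969, and 0.11, adjusted p = 0.895). Their gaps to cardiomyocytes, -1.37, -1.41 and -1.52, were not called (adjusted p = 0.148, 0.14 and 0.0707), and with medians aligned they turned to 2.33, 0.62 and 0.30. Heart Sca1 cells and cardiomyocytes differed by -0.18 (95% interval -1.21 to 0.85), which turned to 1.44 with medians aligned and 1.24 in the deposited values, neither called (adjusted p = 0.52 and 0.501).

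Dusp2, known as PAC-1 from activated leukocytes, had another order. It was 5.31 and 4.48 on the cardiomyocyte arrays, 4.91, 4.79 and 3.67 on the MSC arrays and 4.94, 3.59 and 1.38 on the marrow c-kit arrays. It was 3.27, 3.80 and 2.46 on the heart c-kit arrays, 0.73, 1.25 and 1.76 on the heart Sca1 arrays and 1.38 and 1.30 on the side population arrays. Cardiomyocyte and MSC arrays lay above all side population and heart Sca1 arrays, and marrow c-kit cells spread over most of the range (3.30 ± 1.80, SD, n = 3). The cardiomyocyte, MSC and marrow c-kit arrays carried the macrophage and leukocyte list at 3.44 to 7.30, the heart c-kit arrays at 1.05 to 1.84 and the side population arrays at -1.18 and -2.73. Heart Sca1 replicate 3, with the list at 3.13, had the highest Dusp2 of its group. Marrow c-kit replicate 3, with the list at 3.86, had a Dusp2 of 1.38, below the 2.46 to 3.80 of the heart c-kit arrays, where the list was lower. The part of leukocytes in this gene was not tested.

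Heart Sca1 cells lay below MSC in Dusp2 (-3.21 ± 0.78, SE; limma adjusted p = 0.0168), a call lost without MSC replicate 1 or 2 (adjusted p = 0.073 and 0.068) and without heart Sca1 replicate 1 or 2 (0.07 and 0.053). Side population cells lay below cardiomyocytes (-3.55 ± 0.96, adjusted p = 0.0473), which was lost in 11 of 16 fits without 1 array, among them both without a cardiomyocyte array (0.2 and 0.11). Heart Sca1 cells missed the threshold against cardiomyocytes with a difference as large (-3.65 ± 0.87, adjusted p = 0.142), in a comparison where no gene passed it. Without marrow c-kit replicate 3, Dusp2 was called lower in heart Sca1 cells than in marrow c-kit cells (-3.04, adjusted p = 0.0091; with it, -2.05, adjusted p = 0.0977). No pair of neighbours in the order of means was separated.

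**Figure D2:**
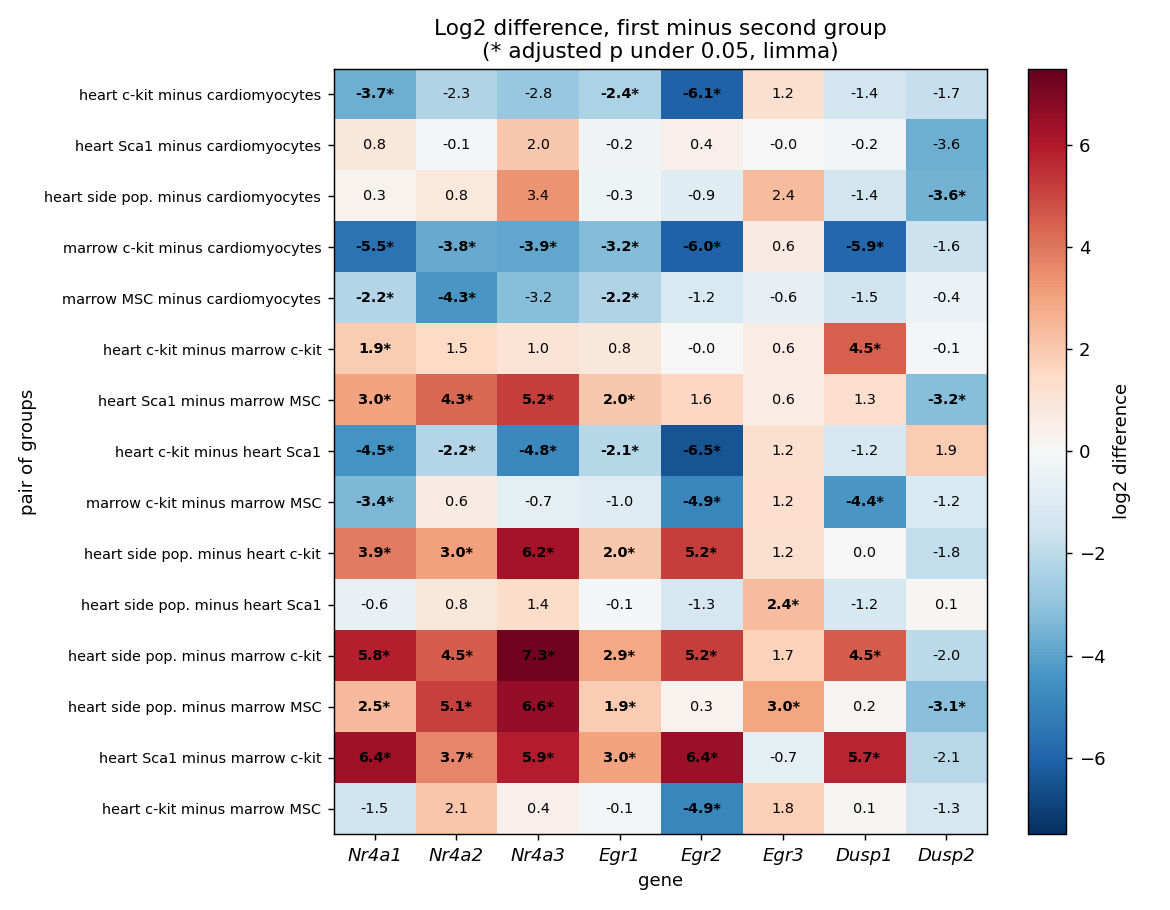
Difference in log2 level, first minus second group (colour and number), for each gene (x axis) in each pair of groups (y axis); an asterisk marks a limma adjusted p under 0.05. Marrow c-kit cells are lower than cardiomyocytes in 6 genes, and the row of heart Sca1 cells against cardiomyocytes has no asterisk.

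The 5 comparisons with cardiomyocytes share the same 2 control arrays. In marrow c-kit cells 6 of the 8 genes were called lower and 0 higher (of all genes 7.43% were lower and 4.99% higher), the exceptions being Egr3 (0.64) and Dusp2 (-1.59). In heart c-kit cells 3 were lower, Nr4a1, Egr1 and Egr2, and 0 higher (2.59% and 0.994% of all genes). In MSC 3 were lower, Nr4a1, Nr4a2 and Egr1, and 0 higher (3.94% and 3.93%). In side population cells 1 was lower, Dusp2, and 0 higher (3.29% and 1.89%). In heart Sca1 cells 0 of 8 were called, as were 0% of all genes; 1 of 8 and 2067 of all genes had an unadjusted limma p under 0.05. The median difference of the 8 genes was -3.81 in marrow c-kit cells, -2.33 in heart c-kit cells, -1.86 in MSC and -0.04 both in heart Sca1 and in side population cells, where the median of all genes lay between 0.06 and 0.14.

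Within the heart, heart c-kit cells were lower than heart Sca1 cells in 5 genes, the 3 Nr4a genes, Egr1 and Egr2, and higher in 0 (7.81% and 3.29% of all genes), with a median difference of -2.18 (0.23 over all genes). Within the marrow, c-kit cells were lower than MSC in 3, Nr4a1, Egr2 and Dusp1, and higher in 0 (7.35% and 3.66%). Between the c-kit groups 2 genes were higher in the heart, Nr4a1 and Dusp1, and 0 lower (4.88% and 5.91%). Between heart Sca1 cells and MSC 4 were higher in the heart, the 3 Nr4a genes and Egr1 (5.3%), and 1 was lower, Dusp2 (5.01%). The heat shock list (8 of 11 genes measured) averaged 6.15 to 6.76 on the heart arrays, 5.49 to 5.66 on the MSC arrays and 4.10 to 4.55 on the marrow c-kit arrays. Its part in the lower levels of marrow c-kit cells was not tested.

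Several differences from cardiomyocytes changed with the scaling. Quantile normalisation gives all arrays 1 distribution, and with it the median of all genes differed from cardiomyocytes by 0.06 in side population cells. With medians aligned only, that median was 1.34. Nr4a1 in side population cells then lay 3.98 above cardiomyocytes (adjusted p = 0.0187), Nr4a2 4.50 (0.0105) and Nr4a3 5.32 (0.0221), against 0.26, 0.78 and 3.39 after quantile normalisation. In that comparison 3 genes were called higher and 0 lower with medians aligned, and 1 higher and 0 lower in the deposited values, against 0 and 1. Over all genes, the lower share of the calls there was 63.5% after quantile normalisation and 8.82% with medians aligned. In marrow c-kit cells Nr4a1 and Dusp1 were called lower than cardiomyocytes under all 3 scalings, and in heart c-kit cells and MSC no gene of the 8 was called against cardiomyocytes under the other scalings. The direction of Nr4a1, Nr4a2, Nr4a3 and Egr1 in marrow c-kit cells, heart c-kit cells and MSC against cardiomyocytes held under all 3.

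**Figure D3:**
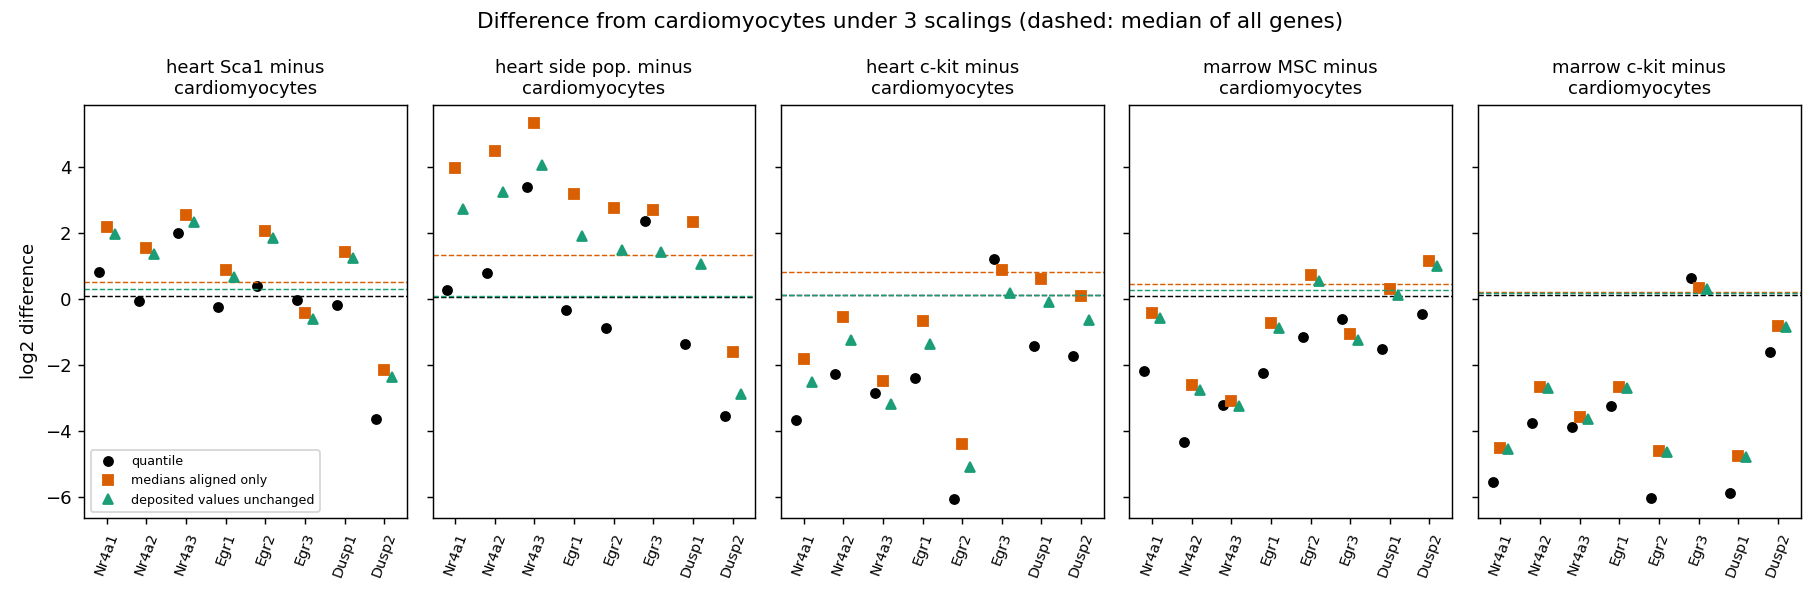
Log2 difference from cardiomyocytes (y axis) of each gene (x axis) in the 5 other groups under 3 scalings; dashed lines mark the median of all genes under each. In side population cells the aligned medians move Nr4a1 from 0.26 to 3.98, while in marrow c-kit cells Nr4a1 and Dusp1 stay between -5.89 and -4.50.

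An interaction was tested, the heart minus marrow difference of c-kit cells minus that of heart Sca1 cells and MSC, here called the stromal pair. In it organ cannot be told apart from culture or cell content. Only the MSC carry a passage number, and their arrays carried macrophage genes. Heart c-kit arrays carried endothelial genes and marrow c-kit arrays neutrophil genes. Of the 8 genes, 1 passed, Dusp1 (3.13 ± 0.61, SE; 95% interval 1.83 to 4.44; limma adjusted p = 0.00608); of all genes 3.65% were called positive and 3.78% negative. The heart exceeded the marrow by 4.47 in c-kit cells and by 1.34 in the stromal pair (adjusted p = 0.066, not called). The interaction was called with each array left out (2.98 to 3.32), but not with medians aligned (4.23, adjusted p = 0.089) or in the deposited values (3.60, adjusted p = 0.084). Nr4a3 (-4.17, adjusted p = 0.0833) and Nr4a2 (-2.80, adjusted p = 0.0963) had their larger organ difference in the stromal pair and did not pass. Without heart c-kit replicate 1 the interaction of Nr4a3 was called (-5.29, adjusted p = 0.019), and without marrow c-kit replicate 1 that of Dusp2 (3.97, adjusted p = 0.04; 3.09 and 0.118 with it).

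**Figure D4:**
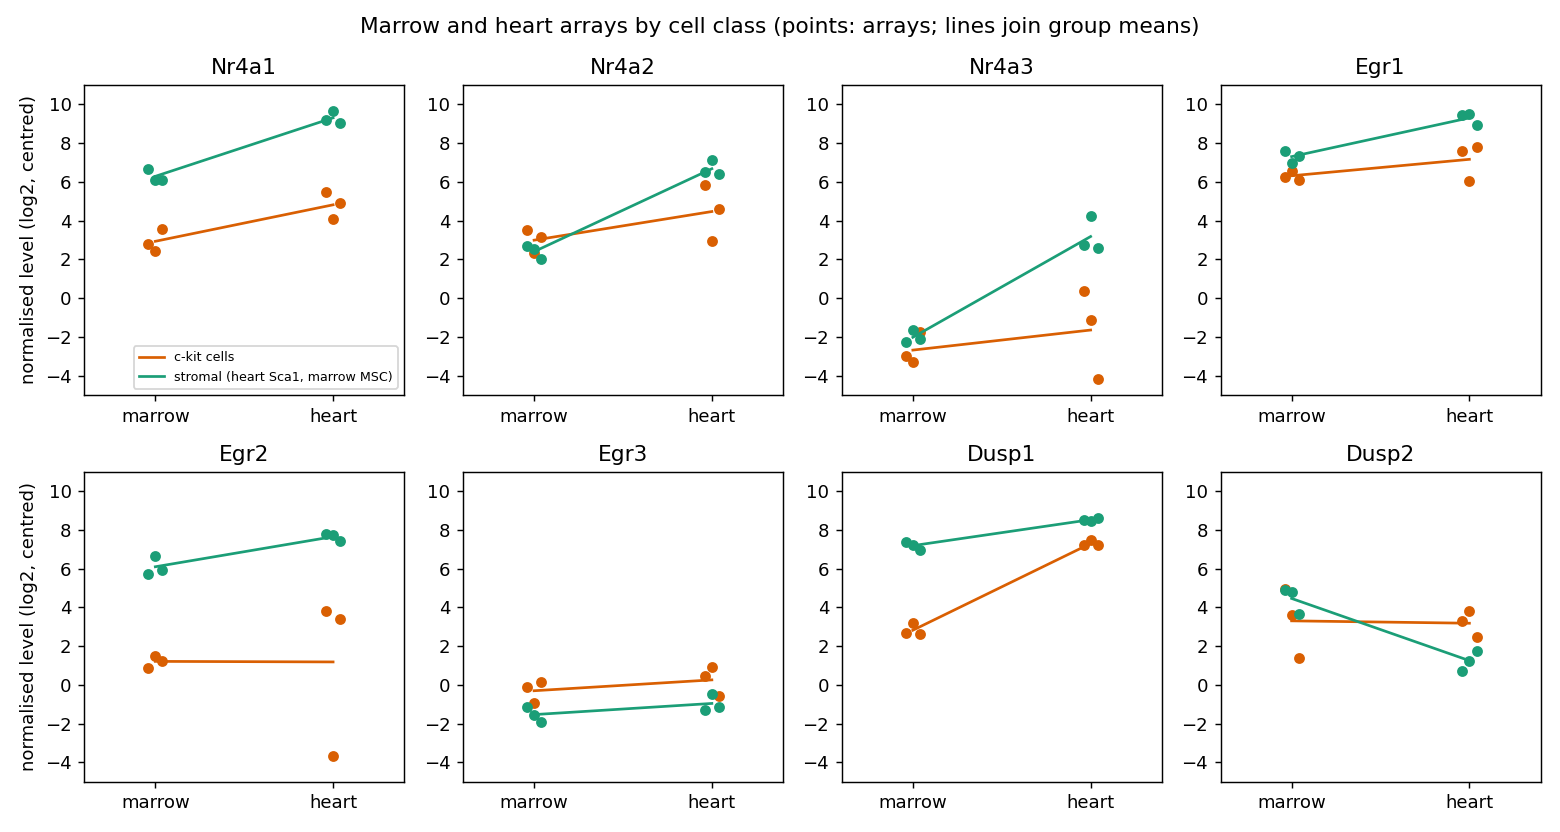
Normalised log2 level (y axis) on each marrow and heart array (x axis) of c-kit cells and of the stromal pair, heart Sca1 cells and MSC; lines join group means. In Dusp1 the c-kit line rises by 4.47 and the stromal line by 1.34, while in Dusp2 the stromal line falls by 3.21.

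Other early transcription factors, mostly AP-1 subunits and KLF factors, were measured for 19 of 20 listed genes, of which 17 passed the F test (31.9% of all genes did). In marrow c-kit cells 14 of 19 were lower than cardiomyocytes and 0 higher (7.43% and 4.99% of all genes; median difference -3.83, against 0.14 over all genes). Atf3, a stress factor, was lower by 8.62 (log2 difference -8.62 ± 0.56, SE; limma adjusted p = 5.55e-07), Klf4, a factor of differentiation and pluripotency, was at -8.25 ± 0.78 (adjusted p = 9.32e-06) and Fos at -6.77 ± 0.86 (adjusted p = 0.000123). In heart c-kit cells 7 were lower, led by Fosb (-6.82 ± 0.76, adjusted p = 0.000311), and 1 was higher (2.59% and 0.994% of all genes). In MSC 7 were lower, with Fosb (-5.98), Cebpd (-5.24) and Csrnp1 (-5.0) the largest, and 1 was higher (3.94% and 3.93% of all genes). In side population cells 1 was lower, Cebpd (-4.29 ± 0.88, adjusted p = 0.015), and 0 higher (3.29% and 1.89% of all genes). In heart Sca1 cells 0 of 19 passed (median -0.08), as did 0% of all genes. Fosl1 had its highest mean in heart c-kit cells, 3.29 ± 0.60 above MSC (adjusted p = 0.00294), with an interaction of organ and class of 6.20 (adjusted p = 0.000579).

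Of 22 early feedback regulators, all measured, 15 were lower in marrow c-kit cells than in cardiomyocytes and 0 higher (7.43% and 4.99% of all genes; median -3.73). The largest were Errfi1, an inhibitor of the EGF receptor (-8.06 ± 0.68, SE; limma adjusted p = 3.9e-06), the kinase Plk2 (-7.04 ± 0.77, adjusted p = 3.45e-05) and Gadd45g (-6.02 ± 0.61, adjusted p = 1.82e-05). In heart c-kit cells 3 were lower, Btg2 (-5.45), Socs3 (-4.32) and Nfkbiz (-2.77), and 0 higher (2.59% and 0.994% of all genes). In MSC 5 were lower and 1 higher (3.94% and 3.93% of all genes). In heart Sca1 cells 0 passed, as did 0% of all genes. The gene higher in MSC was Rgs1, a regulator of G protein signalling known from leukocytes (4.63 ± 1.07, adjusted p = 0.0174). The MSC arrays also carried macrophage genes, whose part in this difference was not tested. Heart c-kit cells exceeded marrow c-kit cells in 13 of the 22 and were lower in 0. Of all genes 4.88% were higher and 5.91% lower there. In the interaction 9 were positive and 1 negative (3.65% and 3.78% of all genes), with Plk2 at 10.2 ± 0.97 (adjusted p = 4.08e-05).

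Of 16 other dual specificity phosphatases, all measured, 7 passed the F test, against 31.9% of all genes. Against cardiomyocytes marrow c-kit cells were lower in 4 and higher in 1 (7.43% and 4.99% of all genes; median -0.68). Dusp16, which acts on JNK, was lower in marrow c-kit cells than in cardiomyocytes (-4.07 ± 0.60, SE; limma adjusted p = 0.000447) and 3.63 higher in heart than in marrow c-kit cells (adjusted p = 0.000464). Dusp6, the cytoplasmic ERK phosphatase, was 3.45 higher in heart than in marrow c-kit cells (adjusted p = 0.0015). Dusp4, a nuclear ERK phosphatase, was higher in heart c-kit cells than in cardiomyocytes (4.91 ± 0.82, adjusted p = 0.00431), heart Sca1 cells (3.79, adjusted p = 0.00448) and marrow c-kit cells (5.51, adjusted p = 0.000171). In side population cells 2 of the 16 were higher than in cardiomyocytes and 0 lower (1.89% and 3.29% of all genes), with Dusp8 at 2.96 (adjusted p = 0.0289). Dusp9 was 4.97 higher in MSC than in cardiomyocytes (adjusted p = 0.000642). Dusp4, Dusp6 and Dusp16 had positive interactions of organ and class (7.36, 4.44 and 4.40), as Dusp1 did.

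Of the kinases and factors upstream of these genes, 20 of 22 were measured and 7 passed the F test, again near the 31.9% of all genes. In marrow c-kit cells 3 of the 20 were lower than in cardiomyocytes and 0 higher (7.43% and 4.99% of all genes). The largest of them was Crem, which encodes activators and repressors that bind the cyclic AMP response element, at -5.39 ± 0.54 (SE; limma adjusted p = 1.45e-05), with means of -0.85 in marrow c-kit cells and 4.54 in cardiomyocytes. It was 4.96 higher in heart than in marrow c-kit cells (adjusted p = 1.16e-05). Srf did not pass the F test (adjusted p = 0.292), with means of 7.51 to 8.93. Of the ERK pathway inhibitors, 4 of 7 were measured, and 0 passed in marrow or heart c-kit cells against cardiomyocytes. Of the partners and corepressors of the NR4A and EGR proteins (7 of 8 measured), 2 passed the F test, a share also near that of all genes. Nab2, which binds EGR proteins and represses their targets, was 4.23 ± 0.84 higher in MSC than in cardiomyocytes (adjusted p = 0.00708) and lower in marrow c-kit cells than in MSC (-4.45 ± 0.75, adjusted p = 0.00124). Rxra, a partner of NR4A1 and NR4A2 that missed the F test (adjusted p = 0.059), was 1.98 higher in heart than in marrow c-kit cells (adjusted p = 0.0321).

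Likeness to a gene was read as Pearson's r of normalised levels over the 16 arrays, which form 6 groups, among the 8855 genes above the median mean. It is a description. Nr4a1 was most like Prelp (0.985), Gsn (0.976), Drd1 (0.975), Kank2 (0.974) and Peg3 (0.968). Egr1 was most like Cd99 (0.959), the AP-1 gene Jun (0.952), Rarres2 (0.951), Mgp (0.942) and Drd1 (0.941). Dusp1 was most like Dlc1 (0.983), Phlpp1 (0.979), Lama4 (0.979), Lhfp (0.979) and Lamb1 (0.976). Among the 8 genes, r was 0.934 between Nr4a1 and Egr1, 0.869 between Nr4a2 and Nr4a3, 0.828 between Nr4a1 and Dusp1, and -0.0931 between Dusp1 and Dusp2. Dusp2 had a negative r with each of the other 7, from -0.562 with Nr4a3 upward.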

How the data were processed

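The deposited values are log2 Cy5 intensities that the authors centred on each array's mean; 2 to the power of a value, rescaled, gave whole intensities (tolerance 0.01, intensities under 200), which is read from the values. No source used here gives the scanner or a background correction. Array medians differed by 1.45, above a limit of 0.5, so arrays were quantile normalised. Each gene took its probe with the highest mean (17710 genes). A model of 6 group means over 16 arrays was fitted with limma 3.58.1 in R 4.3.3, with eBayes and Benjamini-Hochberg adjustment over all genes, and called at 0.05. Of the 15 pairs of groups, 9 and the interaction are comparisons, and the other 6 were planned only for the order of levels between neighbouring groups. Calls given in those 6 between groups not next to each other in that order go beyond the plan and are description. Among them are the calls of Nr4a1 for heart Sca1 and side population cells against marrow c-kit cells. Other named genes are at most 3 per list and comparison, those with the largest called differences, those most like a gene (5 each), and Srf, chosen after its values were seen. The 8 genes and the lists were chosen with earlier results of these data known. Other scalings, filters, probe rules, variance models, a replicate block and each array left out were tried, as was, chosen after seeing the data, a fit of only the groups compared. In simulated data, 50 genes each were changed by 1, 2, 4 or 6 log2 units, in heart Sca1 cells only. The fit recovered 28% of those changed by 4 units between heart Sca1 cells and cardiomyocytes, and 50% between heart Sca1 cells and MSC. Recovery depends on the share of genes changed, which was smaller there than the 10.3% called between heart Sca1 cells and MSC. These rates therefore do not carry over to the data. Promoters are RefSeq's, of GRCm38.p6.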

Additional observations from a re-analysis of the deposited data

Results flagged for a closer look

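The organ difference of Dusp1 was larger in c-kit cells than in the stromal pair by 3.13 log2 units (limma adjusted p = 0.00608). The test of the difference itself singled it out, a test in which 3.65% of all genes were called positive and 3.78% negative. With medians aligned or in the deposited values Dusp1 was not called. Marrow c-kit cells had its lowest mean of the 6 groups. Heart c-kit cells averaged 7.29 ± 0.14 and marrow c-kit cells 2.82 ± 0.32 (SD, n = 3 each), while heart Sca1 cells averaged 8.52 ± 0.06 and MSC 7.18 ± 0.21 (SD, n = 3 each). The MSC arrays carried the macrophage and leukocyte list at 6.75 to 7.30, and its part in this value was not tested.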

How the results depend on the processing

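Of 54 calls over the 15 pairs and the interaction, 22 were kept under all 25 alternatives, and all 54 kept their sign. With medians aligned 17 were lost, in the deposited values 16, with array weights 12 and in fits of only the groups compared 17. The 54 include the pairs planned only for the order of levels, where the fit reported called 1210 to 3757 of all 17710 genes. Side population cells had 3757 called against marrow c-kit cells (6 of the 8) and 3137 against MSC (6 of 8). They had 2087 against heart c-kit cells (5 of 8) and 1210 against heart Sca1 cells (1 of 8). Heart Sca1 against marrow c-kit cells had 2918 (6 of 8), and heart c-kit cells against MSC 2143 (1 of 8). Counts of the 8 genes called follow. With medians aligned: heart c-kit against cardiomyocytes 0, side population 3, marrow c-kit 2, MSC 0, heart Sca1 against MSC 3, heart c-kit against heart Sca1 3, interaction 0. Deposited values: heart c-kit 0, marrow c-kit 2 and MSC 0 against cardiomyocytes, c-kit groups 1, interaction 0. Array weights: heart c-kit 1, side population 0 and MSC 5 against cardiomyocytes, c-kit groups 1, interaction 3. Values raised to the 30th percentile: side population 4 and MSC 5 against cardiomyocytes, interaction 2. The mean over probes and the moderation with trend gave side population 2 and interaction 2, and without the lowest 30% of genes side population had 2. Fitting only the groups compared gave heart c-kit 0 and side population 0 against cardiomyocytes, c-kit groups 1, and heart c-kit against heart Sca1 1. Over all genes that fit called 0.0169%, 0%, 6.02% and 4.4% in these comparisons, against 3.58%, 5.17%, 10.8% and 11.1% in the fit of 6 groups. The other settings also moved the counts over all genes: against cardiomyocytes, heart c-kit cells had 0.836% called with medians aligned, 1.26% in the deposited values and 1.37% with array weights, side population cells 14.8%, 4.68% and 0.723%, marrow c-kit cells 5.24%, 5.97% and 13.9% (12.4% in the fit reported) and MSC 4.23%, 5.23% and 11.5% (7.87%). With values raised, side population cells had 8.39% and MSC 12.6%. With 1 array left out, counts ran from 1 to 5 (heart c-kit), 0 to 3 (side population), 4 to 6 (marrow c-kit) and 1 to 4 (MSC) against cardiomyocytes, 1 to 4 between c-kit groups, 3 to 6 for heart Sca1 against MSC, 3 to 5 for heart c-kit against heart Sca1, 2 to 3 for marrow c-kit against MSC and 1 to 2 for the interaction. Between heart Sca1 cells and cardiomyocytes the count was 0 under every alternative run.

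Of 128 differences (8 genes in 15 pairs and the interaction), 21 turned sign with medians aligned, 11 of them against cardiomyocytes, and 15 in the deposited values, 9 of them against cardiomyocytes. Of these, 0 were called after quantile normalisation and 0 under the scaling that turned them. Against cardiomyocytes, medians aligned turned Egr1 (3.17) and Egr2 (2.75) in side population cells, Nr4a2 (1.56), Egr1 (0.88) and Dusp1 (1.44) in heart Sca1 cells, Egr2 (0.73) and Dusp2 (1.17) in MSC and Dusp2 (0.08) in heart c-kit cells. Dusp1 against cardiomyocytes turned to 0.62 in heart c-kit cells, 2.33 in side population cells and 0.30 in MSC with medians aligned, and to 1.07 in side population cells and 0.13 in MSC in the deposited values; against heart Sca1 cells it turned to 0.89 in side population cells with medians aligned. Egr2 between the c-kit groups turned to 0.20 with medians aligned, 0.43 with values raised, 0.13 without marrow c-kit replicate 2 and 2.33 without heart c-kit replicate 2, over a range of -1.36 to 2.33 with 1 array left out. The cause was not tested.

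Replicate numbers gave no pairing that held over the groups: of 36 same-numbered pairs 4 had a correlation of deviations over 0.1 (median 0.0074). So had 11 of 70 differently numbered pairs (median -0.00075). The highest value, 0.399, was between replicate 1 of heart c-kit cells and replicate 1 of cardiomyocytes. Replicate 1 of marrow c-kit cells had 0.317 with that cardiomyocyte array and 0.204 with that heart c-kit array. Replicate 2 of marrow c-kit cells and of cardiomyocytes had 0.320. Differently numbered pairs reached 0.324. In a group of 2 arrays the deviations mirror each other, so the pairs are not independent. Whether single arrays shared an animal or a batch cannot be told from these values. With the replicate block 10 of 54 calls were lost, leaving 1 gene called for heart c-kit cells and 1 for MSC against cardiomyocytes. Spot intensities as low as 2 limit Nr4a3 and Egr2 in heart c-kit cells, and the scanner's ceiling limits Nr4a1 and Egr1 at the top.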

Other observations

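Heat shock genes were not alike across the groups. Hspa1a, which encodes an inducible HSP70 chaperone, averaged 8.24 in cardiomyocytes, 7.96 in heart Sca1, 7.31 in side population and 7.20 in heart c-kit cells. MSC averaged 4.10 and marrow c-kit cells 0.49. Hspa1b is a near-identical gene, so a probe may read both. Of the 8 measured genes of the list, 3 were lower and 1 higher in marrow c-kit cells than in cardiomyocytes. Of all genes 7.43% were lower and 4.99% higher there. The median difference of the list was -1.18, against 0.14 over all genes.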
